A study of Rattus norvegicus with 18 samples.

Results

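Of 32662 genes counted in rat brain, 69 were strongly enriched in the dorsal hippocampus (dHC) over the prelimbic cortex (PL) and stable 1 h after avoidance training. They were chosen by a rule on measured values. A gene entered with a mean of at least 5 CPM, a scaled share of all counts assigned to genes, in naive dHC. Its level, taken as log2(mean CPM of a group + 0.5), also had to lie at least 2 higher in naive dHC than in naive PL, which is about 4-fold. Last, that level had to move by less than 0.3 between naive and 1 h in both regions. The level condition was met by 11509 genes. Of the few that then met the regional one, 105 were stable at 1 h in dHC, 82 in PL and 70 in both, and 1 of the 70 was left out by its ID, with 69 remaining. The naive and 1 h libraries therefore chose the genes, and comparisons among these libraries are given as a description without a test. The 6 d libraries took no part in the choice, but tests of 6 d against naive share the naive libraries with it.

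The tissue was punched from frozen brains of adult Long-Evans rats, which are outbred. The 6 groups were dHC and PL of rats kept in the home cage (naive), of rats killed 1 h after training in inhibitory avoidance, and of rats killed 6 d after it. Inhibitory avoidance is a fear task in which rats come to avoid a compartment linked to a foot shock. Each group held 3 libraries, each from a pool of RNA of 5 rats, so that differences between single rats were averaged within a pool. The labels do not say whether dHC and PL pools of the same number came from the same rats. No batch is named either, and library numbers run consecutively within each combination of region and condition, so the order of handling and the groups cannot be told apart.

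The dorsal hippocampus holds the granule cells of the dentate gyrus and the pyramidal cells of the CA fields, wired in a loop with the entorhinal cortex, and is needed for memories of places and events. The prelimbic cortex is a layered medial prefrontal area that takes part in the control of learned fear and avoidance and in the later storage of such memories. Genes read out far more in hippocampus than in neocortex include transcription factors and adhesion and signalling genes of particular hippocampal cell types. They are commonly used to mark a dissection.

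The count tables give Ensembl gene IDs only, and 0 of the 32662 IDs were matched to a name in the reference table used here. The roles of the 69 genes, their promoter sequences and the tissue markers of both regions were therefore not analysed here. By a fixed rule 4 of the genes are given by their ID, and the others by counts and ranges. Depth ran from 7463875 to 9215695 gene counts per library, and a limit of 3 counts per library corresponded to 0.326 to 0.402 CPM. CPM is not corrected for gene length, so the levels of different genes are not compared with each other as amounts of RNA.

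In naive dHC the 69 genes had mean levels of 5.26 to 791 CPM, with a median of 40.8 CPM. In naive PL the same genes lay between 0 and 178 CPM, with a median of 4.07 CPM. The naive difference in log2 level, dHC minus PL, ran from 2.03 to 5.67 with a median of 2.70. It was between 2 and 3 for 49 genes, between 3 and 4 for 12 and above 4 for 8. Together the 69 genes took 0.540% to 0.587% of all gene counts in each dHC library and 0.0898% to 0.0951% in each PL library. Every dHC library thus stood above every PL library, which the rule itself had set for the naive and 1 h libraries. In the 6 d libraries, which it had not used, the shares were 0.563% to 0.587% in dHC and 0.0913% to 0.09305% in PL. Without the 2 genes with the most reads, the other 67 took 0.403% to 0.431% in the dHC libraries and 0.0571% to 0.0619% in the PL libraries. These are bulk tissue samples, in which fewer cells of a type and less RNA per cell cannot be told apart.

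The edges of the rule were thinly separated for the regional and the 1 h conditions. The genes nearest inside the limit of 2 had naive differences of 2.029, 2.033 and 2.036, and those nearest outside had 1.998, 1.991 and 1.980. For the 1 h change in dHC the nearest inside were at 0.292, 0.285 and 0.284 in absolute log2 level and the nearest outside at 0.301, 0.318 and 0.320. In PL the nearest inside were at 0.293, 0.291 and 0.291 and the nearest outside at 0.301, 0.302 and 0.306. The limit of 5 CPM fell in a wider gap, with 5.26, 5.80 and 6.24 CPM inside and 3.90, 3.71 and 3.70 CPM outside.

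Counting was firm in dHC and thin in PL. The median gene of the 69 had 295 to 387 counts in a dHC library and 35 to 45 in a PL library. The lowest count of any of them in a dHC library was 25. In PL, 5 to 9 of the genes stood at or under 3 counts in a library and 0 to 2 had no count at all.

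The region difference was then measured in the 6 d libraries, which the rule had not used. All 69 genes were higher in dHC than in PL at 6 d by edgeR's quasi-likelihood test (largest adjusted p = 6.43e-08). Over all 14784 genes tested, 23.0% were called higher in dHC. Every dHC pool lay above every PL pool for 69 of the 69 genes, against 24.6% of all genes tested. The narrowest gap, from the lowest dHC pool to the highest PL pool, was 1.29 in log2(CPM + 0.5), and the median gap was 2.21. A called log2 fold change of 2 or more was found for 66 of the 69, where 1.77% of all genes tested reached it. The median fitted log2 fold change of the 69 was 2.86, with quartiles of 2.33 and 3.69 and a median standard error of 0.15. All 69 passed the filter on low counts, and 58 of them passed it also on PL libraries alone. The other 11 passed only through their dHC counts. All 58 were among the genes called and among those with no overlap of pools, and 55 of them reached a called log2 fold change of 2 or more.

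**Figure D1:**
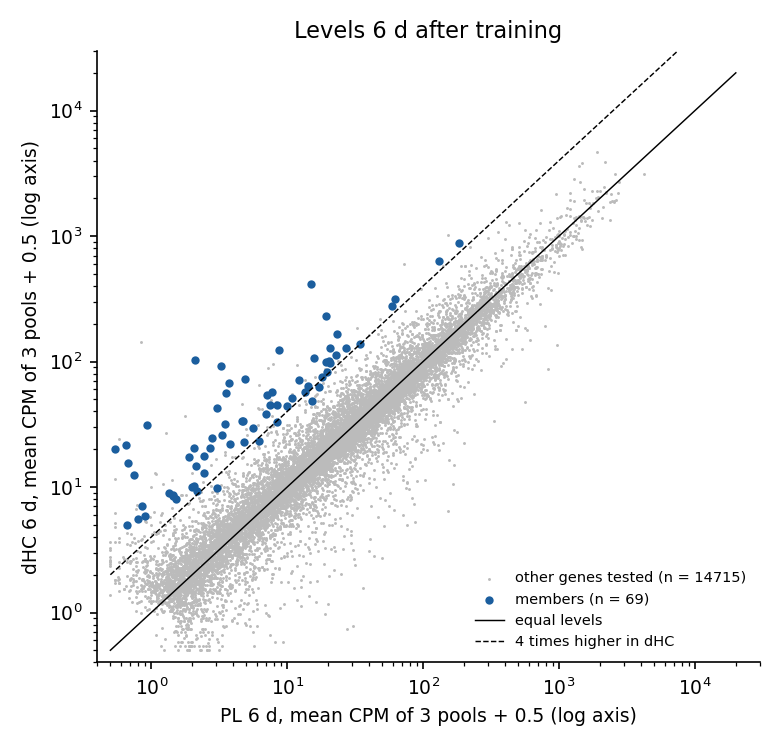
Mean CPM + 0.5 of the 3 pools at 6 d in PL (horizontal, log axis) and dHC (vertical, log axis), with the 69 genes in blue and the other genes tested in grey. All 69 lie above the line of equal levels, and most lie along or above the dashed line that marks a value 4 times higher in dHC.

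From naive to 6 d the region difference moved by less than 0.3 for most of the 69 genes. Its moves were larger than over genes in general. The median difference in log2 level was 2.70 in naive rats, 2.57 at 1 h and 2.60 at 6 d. The difference was larger at 6 d than in naive rats for 35 genes and smaller for 34. Of the 11509 genes with at least 5 CPM in naive dHC, it was larger for 4881 and smaller for 6628. Among the 69 it moved by less than 0.3 for 48, with a median absolute move of 0.14 and an upper quartile of 0.31. Over the 11509 genes the median and upper quartile were smaller, at 0.09 and 0.16. The share of them within 0.3 was not computed, but their upper quartile lay well inside that limit. The 69 thus moved more than genes in general, and this was not tested. They also had fewer counts in PL, with a median of 4.07 CPM in naive PL beside 35.5 CPM for the 11509 genes. The median standard error of the fitted move was 0.25, beside 0.14. The part of counting error in the larger moves was not tested. The limit of 2 was still met at 6 d by 64 genes, while 1.12% of the 11509 genes with at least 5 CPM in naive dHC met it. The other 5 lay as low as 1.67, and none of these 5 had started above 2.14. Across the 69 genes the naive and 6 d differences had a Pearson correlation of 0.952 and a Spearman correlation of 0.916. This is a description, since the values come from separate libraries but share the genes' counting depth, and the choice of genes set the naive side.

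**Figure D2:**
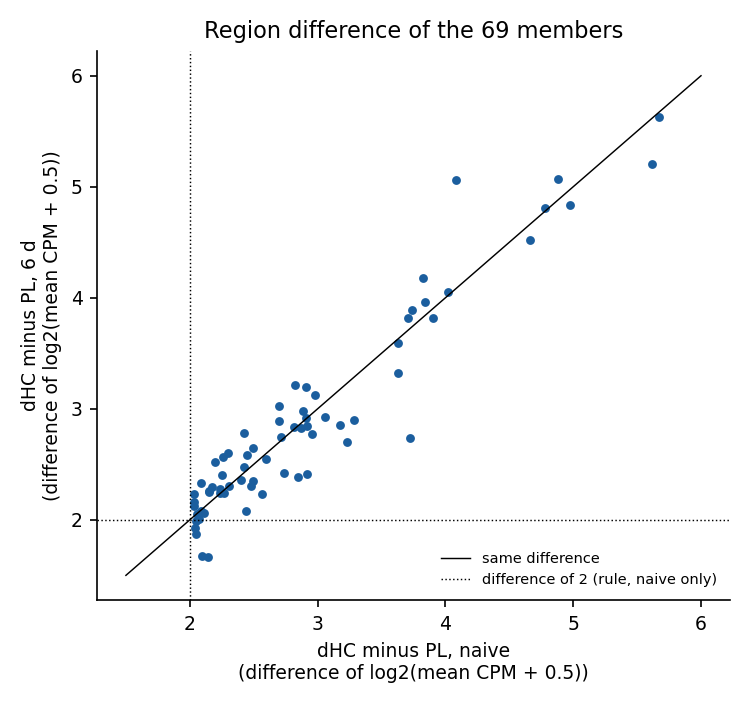
Difference in log2(mean CPM + 0.5), dHC minus PL, of each of the 69 genes in naive rats (horizontal) and at 6 d (vertical), each from 3 pools a region. The points follow the line of equal differences, and 5 of them lie below the dotted line at 2 on the 6 d axis.

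The 8 genes with a naive difference above 4 had mean levels of 0 to 14.7 CPM in naive PL, with a median of 0.591 CPM, and 12.4 to 418 CPM in naive dHC. At 6 d their difference ran from 4.06 to 5.62 with a median of 4.95. The 12 genes between 3 and 4 had a 6 d median of 3.46, and the 49 between 2 and 3 a 6 d median of 2.36. The order of these bands was thus the same at 6 d, in libraries that had not set them.

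ENSRNOG00000046863 had the widest naive difference, 5.67 in log2 level. Its naive dHC pools held 136.9, 89.8 and 125.3 CPM and its naive PL pools 2.06, 2.53 and 0.859 CPM. At 1 h the dHC pools were at 126.4, 130.6 and 125.1 CPM and the PL pools at 2.03, 1.53 and 1.94 CPM. At 6 d the dHC pools were at 103, 86.0 and 118 CPM and the PL pools at 2.53, 1.07 and 1.15 CPM. The naive dHC pools overlapped those of both other conditions, while every 6 d pool lay below every 1 h pool. In each condition every dHC pool lay far above every PL pool. At 6 d the log2 fold change of ENSRNOG00000046863 between the regions was 5.97 (SE 0.22, edgeR adjusted p = 2.97e-18). Its PL values rest on 8 to 23 counts per library at 6 d.

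ENSRNOG00000002549 came next, with a naive difference of 5.62, and had no count in any naive PL library. Its dHC pools held 19.6, 23.2 and 29.3 CPM in naive rats, 33.8, 24.6 and 30.2 CPM at 1 h and 16.8, 20.4 and 21.6 CPM at 6 d. The 6 d pools all lay below the 1 h pools and overlapped the naive ones. In PL there were 2 counts at 1 h, both in pool 2, and 1 count at 6 d, in pool 2 as well. Against a limit of 3 counts over the naive PL group, the 611 naive dHC counts made the gene at least 212-fold higher in dHC. At 6 d, 488 dHC counts stood against that 1 count. The ratio per library size was 496, with an exact 95% interval of 88.7 to 19648 that covers counting error only. Without PL pool 2, which holds that count, the gene was at least 117-fold higher in dHC at 6 d, against 3 counts over the other PL pools. The call at 6 d was made by edgeR with an adjusted p of 4.88e-14. The gene passed the filter on low counts only through its dHC counts, for which the rule had chosen it. That p is therefore no separate support.

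**Figure D3:**
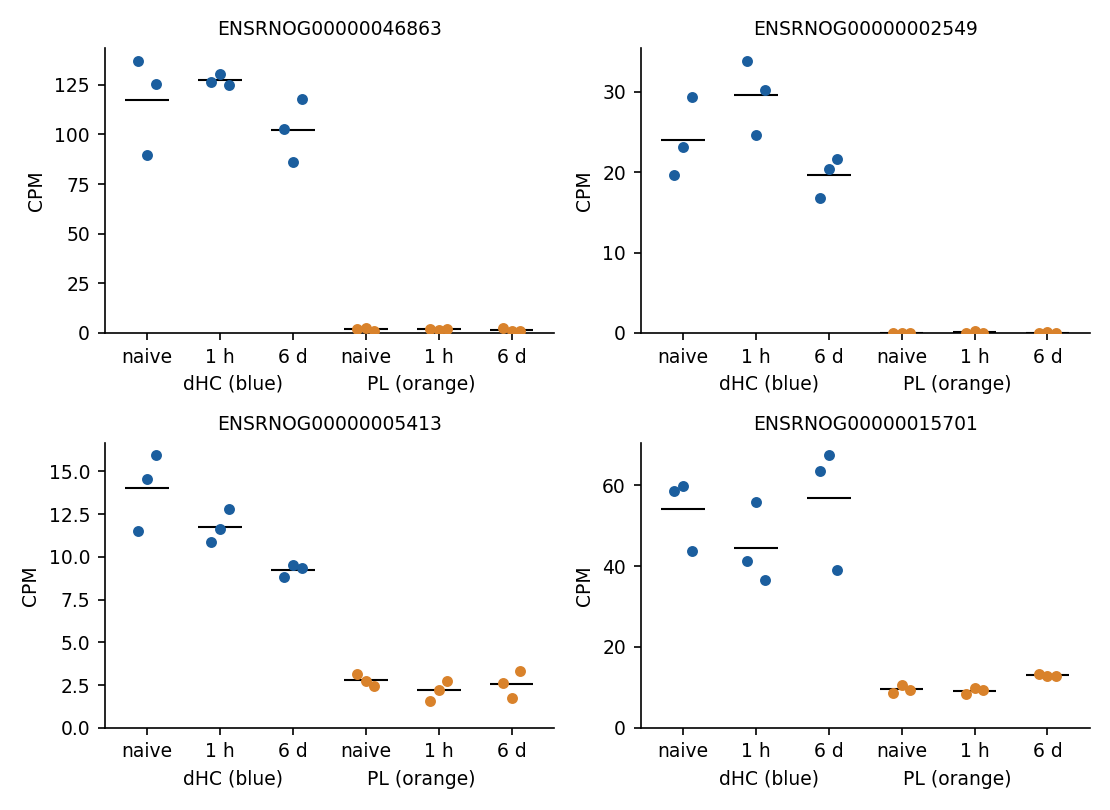
CPM of the 4 genes given by ID in each pool, with dHC in blue, PL in orange and a black line at the mean of 3 pools, on axes that start at 0. ENSRNOG00000046863 and ENSRNOG00000002549 are near 0 in PL throughout. ENSRNOG00000005413 has its lowest dHC pools at 6 d, and ENSRNOG00000015701 its highest PL pools at 6 d.

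In dHC the 69 genes were next followed from naive to 6 d. These changes share the naive libraries with the rule. By edgeR, 0 of the 69 were called at an adjusted p under 0.05, as were 0 of all 14305 genes tested (0%). An unadjusted p under 0.05 was found for 9 of the 69 with edgeR, 7 with DESeq2 and 9 with limma voom. That is 13.0% of the genes with edgeR, where 5.62% of all genes tested had such a p. Of the 9, 4 were higher at 6 d, beside 3.32% of all genes tested, and 5 lower, beside 2.30%. All 6 d pools lay above all naive pools for 1 of the 69 (4.43% of all genes tested) and below them for 4 (5.22%). The fitted log2 fold changes of the 69 ran from -0.59 to 0.27 with a median of 0.01. The 95% interval lay within 0.5 either way for 58 of the 69, where 72.2% of all genes tested did so, and within 1 for all 69, against 93.4%. All genes tested include genes under the 5 CPM that the rule required. The median standard error of the 69 was 0.103, beside 0.094 over the 11509 genes with at least 5 CPM in naive dHC. At that level the 69 were thus not known more closely. The number at an unadjusted p under 0.05 fell to 5 without 6 d pool 2 and was 14 without a filter on low counts.

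By the limit that the rule had set for 1 h, 65 of the 69 also stayed within 0.3 of their naive dHC level at 6 d, a share of 94.2%. Among the 11509 genes with at least 5 CPM in naive dHC this share was 97.9%. The 4 genes outside it were all lower at 6 d, by 0.30 to 0.57, and had between 5.80 and 18.7 CPM in naive dHC.

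ENSRNOG00000005413 had the smallest unadjusted p of the 69 in dHC. Its pools held 11.5, 14.6 and 16.0 CPM in naive dHC, 10.9, 11.6 and 12.8 CPM at 1 h and 8.84, 9.54 and 9.36 CPM at 6 d. The 6 d pools all lay below the naive pools and below the 1 h pools, while the naive and 1 h pools overlapped. The log2 fold change at 6 d was -0.59 (SE 0.15), which did not pass over all genes (edgeR adjusted p = 0.831, in a range of 0.0572 to 0.999 over 13 alternatives). In PL the gene had 3.15, 2.75 and 2.46 CPM in naive pools and 2.64, 1.74 and 3.32 CPM at 6 d, which overlapped. At 6 d its regional fold change was 1.83 in log2 (SE 0.21), with an edgeR adjusted p of 3.01e-08, and was among the 3 of the 69 below 2.

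In PL, 58 of the 69 genes could be tested from naive to 6 d. The other 11 failed the filter on low counts there, with at most 0.599 CPM in naive PL. By edgeR 0 of the 58 were called, as were 0 of all 14318 genes tested (0%). An unadjusted p under 0.05 was found for 2 of the 58 with edgeR, 2 with limma voom and 1 with DESeq2. The 2 with edgeR were higher at 6 d, beside 2.00% of all genes tested, and 0 were lower, beside 1.47%. All 6 d pools lay above all naive pools for 3 of the 58 (5.14% of all genes tested) and below them for 0 (3.02%). The 2 genes with an unadjusted p under 0.05 by edgeR were 3.45% of the 58, and 3.47% of all genes tested had such a p. The fitted log2 fold changes ran from -0.44 to 0.45 with a median of -0.01. The 95% interval lay within 0.5 for 25 of the 58 and within 1 for 51, against 73.3% and 93.4% of all genes tested. The PL values of these genes were thus known less closely than those of most genes. In log2 level, 59 of the 69 stayed within 0.3 of naive PL at 6 d, a share of 85.5% against 97.7% of the genes with at least 5 CPM in naive dHC. Of the 10 outside it 4 were lower and 6 higher. Among the 22 genes with 10 CPM or more in naive PL, 21 stayed within it. The share over all genes of that PL level was not computed, and the part of low counts was not tested.

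ENSRNOG00000015701 had the smallest unadjusted p of the 58 in PL. Its PL pools held 8.57, 10.7 and 9.45 CPM in naive rats, 8.44, 9.87 and 9.37 CPM at 1 h and 13.4, 12.9 and 12.7 CPM at 6 d. The 3 pools at 6 d lay above all naive and 1 h pools. The log2 fold change of 0.43 (SE 0.13) did not pass over all genes (edgeR adjusted p = 0.999, in a range of 0.344 to 1 over 13 alternatives). In dHC the gene varied more between pools of the same condition, with 58.6, 59.8 and 43.7 CPM in naive rats, 41.2, 55.9 and 36.4 CPM at 1 h and 63.6, 67.6 and 38.9 CPM at 6 d. These overlapped.

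**Figure D4:**
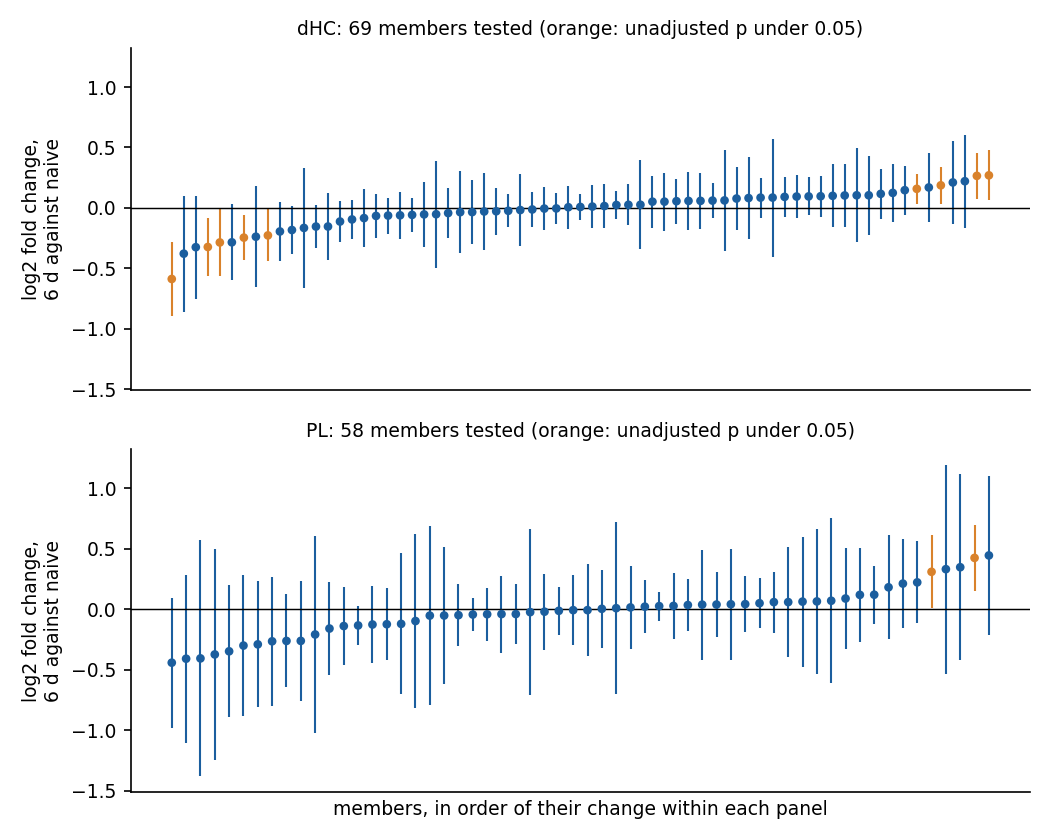
Log2 fold change of 6 d against naive with its 95% interval (edgeR) for the 69 genes in dHC (top) and the 58 tested in PL (bottom), in order of the change within each panel. Orange marks an unadjusted p under 0.05, found for 9 genes in dHC and 2 in PL, and the intervals are wider in PL.

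Whether the region difference itself changed from naive to 6 d was tested with all 18 libraries. The rule had set the naive side of this contrast at 2 or more, so its values are not independent of the choice of genes. By edgeR 0 of the 69 genes were called, as were 0 of all 14784 genes tested (0%). An unadjusted p under 0.05 was found for 2 of the 69 with edgeR, for 3 with DESeq2 and for 2 with limma voom. Of the 2 with edgeR, 1 had a positive value, towards dHC (2.20% of all genes tested), and 1 a negative one (1.58%). Both were among the 11 genes that passed the filter on low counts only through their dHC counts. Their naive and 6 d PL pools held 0 to 12 counts, so these p are no separate support. The edgeR share of 2.90% stood beside 3.77% of all genes tested. The 95% interval of this change lay within 1 in log2 for 48 of the 69 and within 0.5 for 21, against 81.5% and 55.1% of all genes tested. For the other 21 it reached beyond 1, which is a 2-fold change.

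The 1 h changes in log2 level ran from -0.28 to 0.29 in dHC and from -0.29 to 0.29 in PL, within limits that the rule itself had set.

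The 69 genes were set beside the genes enriched in dHC that had not been stable at 1 h. There were 55 of the latter, of which 35 missed the 1 h limit in PL only, 12 in dHC only and 8 in both. A region difference in log2 level of 2 or more at 6 d was kept by 51 of the 55, a share of 92.7%, beside 92.8% of the 69. Their 6 d level lay within 0.3 of naive for 85.5% in dHC and 80.0% in PL, beside 94.2% and 85.5% of the 69. The difference between these shares was not tested. The 55 were picked for a 1 h move from naive, and the 6 d shares use the same naive libraries, so lower shares are partly built in. Median levels of the 55 were also lower, at 27.6 CPM in naive dHC and 2.63 CPM in naive PL, beside 40.8 and 4.07 CPM.

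The median SD of log2(CPM + 0.5) over the 3 pools of a condition was, for the 69 genes, 0.14 in naive dHC, 0.11 at 1 h and 0.15 at 6 d. Over the 11509 genes with at least 5 CPM in naive dHC these medians were 0.09, 0.08 and 0.11, at a like depth (median 36.1 CPM, beside 40.8 CPM). The difference was not tested. Over all 9 dHC libraries the SD of the 69 ran from 0.04 to 0.38, and was under 0.1 for 8 genes and over 0.3 for 6. Its median was 0.16 for the 69, beside 0.12 over the 11509 genes, whose lower quartile was 0.09. The shares of these genes under 0.1 and over 0.3 were not computed.

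Over the 9 dHC libraries the first principal component of the 69 genes held 37.5% of their variance, beside 28.2% for the 11509 genes. Its scores were -1.41 and -1.31 in 6 d pools 2 and 1, and -0.70 in naive pool 2. They were 1.31 and 1.06 in 1 h pools 3 and 1, and 0.62 in naive pool 3. The remaining pools, among them 6 d pool 3 at 0.29, lay between -0.10 and 0.29. The 11509 genes placed the libraries in a like order on their own first component, with 6 d pool 2 lowest at -14.2 and 1 h pool 3 highest at 11.8. On it naive pool 2 was at -8.67, 6 d pool 1 at -6.62, 6 d pool 3 at 0.22 and 1 h pool 1 at 10.7. This order of the libraries was thus not particular to the 69. Naive pools stood on both sides for the 69, and 6 d pool 3 stood apart from the other 6 d pools. With 34 genes weighted to the positive side and 35 to the negative, their median deviation from the mean of the dHC libraries stayed between -0.04 and 0.04 in every dHC library. Genes on the positive side had a median region difference at 6 d of 2.78 and those on the negative side 2.52. Of the 20 genes with a naive difference of 3 or more, 16 were on the positive side.

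**Figure D5:**
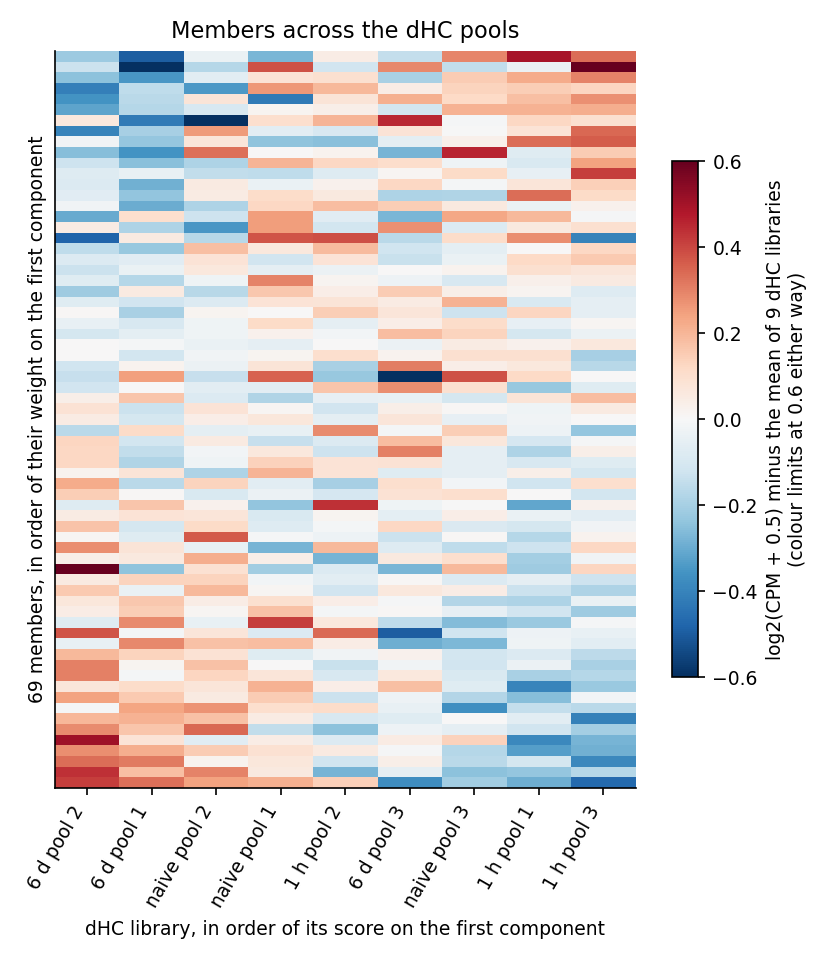
Deviation of log2(CPM + 0.5) from the mean of the 9 dHC libraries for each of the 69 genes (rows), with libraries in order of their score on the first component (columns) and genes in order of their weight on it. Genes at the top are low (blue) in 6 d pools 1 and 2 and high (red) in 1 h pools 1 and 3, and those at the bottom the reverse, with naive pools on both sides.

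For the 8 genes with a naive difference above 4, pools differed within and between conditions. Their median deviation from the mean of the dHC libraries was -0.01, -0.04 and 0.11 in naive pools 1 to 3, 0.14, 0.09 and 0.14 in the 1 h pools and -0.23, -0.15 and 0.03 in the 6 d pools. All 8 had a lower mean level at 6 d than at 1 h in dHC, with a median difference in log2 level of -0.21, while 5809 of the 11509 genes with at least 5 CPM were lower. The 49 genes with a naive difference of 2 to 3 went the other way more often. Of these, 33 were higher at 6 d than at 1 h, beside 5700 of the 11509 genes, with a median difference of 0.06. From naive to 1 h the median change in dHC was 0.13 for the 8 genes and -0.06 for the 49, so the signs were reversed. Both changes use the same 1 h libraries with opposite sign, so such a reversal is partly built in. From naive to 6 d the median change was -0.07 and 0.04. The rule had used the 1 h values, and 6 d was not tested against 1 h. The naive pool 3 and the 6 d pool 3 were closer to the 1 h pools than the other pools of their conditions were. In PL the same 8 genes deviated by -0.25 to 0.25, on far fewer counts. The part of pool differences in the 6 d levels of these genes was not tested.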

How the data were processed

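RNA of 18 pools was sequenced. Per the labels' protocols, a stranded kit for polyadenylated RNA was used on 200 ng of RNA, with 12 PCR cycles and paired 150 nt reads. The authors deposited raw read counts for each Ensembl gene ID, in whole numbers. The submitters' processing notes give the build as Rnor_6.0 and list DESeq2, bedtools 2.17.0 and Picard 1.126, without saying what each did. Not given in the sources used here are the aligner, the counting program and its strand setting, so genes that overlap, lie antisense or have near-identical copies are uncertain. The 5 rows of reads given to no gene were left out of totals and tests (not aligned 42.0% to 51.8%, aligned to more than one place 5.56% to 7.18%, outside gene models 10.1% to 13.6%, on more than one gene 0.599% to 0.706% of all reads).

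CPM were taken over gene rows. Tests used edgeR 4.0.16 in R 4.3.3 (glmQLFit and glmQLFTest, two-sided, TMM factors, filterByExpr by group, Benjamini-Hochberg over all genes tested). The region comparison at 6 d and the regional difference of the 6 d change used all 18 libraries, and 6 d against naive the 9 libraries of a region. Standard errors come from the F statistic. The fits were tested on simulated data. Alternatives were DESeq2 1.42.0, limma 3.58.1 (voom), other scaling, no filter on low counts, only the groups compared, a term for the replicate number and leaving out each pool.

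The 69 genes were chosen with earlier results of these data known, as were the lists of marker genes drawn up for this work. Those lists were not used, because no ID could be paired with a name. The genes given by ID are the 2 with the widest naive region difference and the gene with the smallest p at 6 d against naive in each region. The 4 IDs named in the rule were left out, and are not reported here.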

Additional observations from a re-analysis of the deposited data

How the results depend on the processing

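All 69 genes were called higher in dHC than in PL at 6 d in each of 13 alternatives, and the median log2 fold change lay between 2.83 and 2.90. Over all genes tested, 2920 to 3490 were called higher in dHC in these alternatives. The 69 include the 11 genes that passed the filter of the main fit only through their dHC counts, whose calls are no separate support. The other 58 were called in each alternative as well. No gene of the 69 was called at 6 d against naive in either region, or for the regional difference of the 6 d change, in any alternative run. The smallest adjusted p reached by one of the genes was 0.0572, in dHC without a filter on low counts. Over all genes, the count called in dHC at 6 d was 31 when low counts were not filtered, 3 with the replicate block, 1 with DESeq2, and 0 to 1 with a pool left out. In PL it was 8 without a filter and 0 to 1 with a pool left out, and for the regional difference it was 12 without a filter. Genes with an unadjusted p under 0.05 among the 69 numbered 5 to 14 in dHC, 1 to 4 in PL and 1 to 6 for the regional difference, with 6 reached without naive PL pool 3. The rule gave 62 to 70 genes under 8 alternatives, between 57 and 66 of them among the 69. The fewest genes were found without naive dHC pool 3 and the fewest shared ones without naive PL pool 1.

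With a pool left out, the 6 d change of ENSRNOG00000015701 in dHC ran from -0.074 to 0.28. In PL that of ENSRNOG00000005413 ran from -0.34 to 0.081 and that of ENSRNOG00000046863 from -0.76 to 0.10. The regional difference of the 6 d change of ENSRNOG00000046863 ran from -0.29 to 0.57 and was -0.014 with library totals only. None of these values was called, and the cause was not tested.

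The replicate numbers were not taken to pair the pools. Deviations of same-numbered pools correlated by -0.12 to -0.01 between dHC and PL at 6 d, by 0.05 to 0.20 between naive and 6 d in dHC and by -0.01 to 0.17 in PL. With the replicate block all 69 genes stayed called in the region comparison and 0 in the others, and 13, 2 and 4 had an unadjusted p under 0.05 in dHC, in PL and for the regional difference.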
